A study of Mus musculus with 65 samples.

Results

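Short deletions with microhomology are deletions of 2 to 19 bp whose junction lies in a stretch of at least 2 bp present on both sides of the break, so that 1 copy stays and the other is lost with the bases between the copies. They were chosen by the recorded net length and homology length of each sequenced read, over all 65 libraries of a study of Cas9 editing in mouse hepatocytes. An allele was 1 combination of left edge, right edge, deletion length and homology length at a cut site. By this rule 151 alleles were members, out of 4358 indel alleles, and they held 11888 of 325230 indel reads (reads with a net length other than 0).

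A double-strand break can be closed by end joining with little or no homology, or by microhomology-mediated end joining. In the second route the ends are trimmed back to single strands, short repeats on both sides pair, the flaps are removed and the gap is filled, and DNA polymerase theta is a main enzyme of this step. Its products are deletions that recur at a given site, because the positions of the repeats are set by the sequence around the break. Hepatocytes of the adult liver are mostly out of the cell cycle, and end joining is the main way in which such cells close breaks.

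All animals carried the genotype Rosa-LSL-Cas9-EGFP, a cassette at the Rosa locus in which a stop element placed before Cas9 and EGFP is removed by Cre. Virus (AAV) was given by retro-orbital injection with an empty sgRNA (EV, 21 libraries, 2 weeks post injection (wpi)) or with sgRNAs, and liver hepatocyte DNA was amplified around 21 cut sites of 9 targets. The 44 sgRNA libraries fall into 3 labelled arms. KO has 24 libraries, of which 1 was taken at 1 wpi, 17 at 2 wpi and 3 each at 3 and 8 wpi. Coinjection has 8, from the 4 Lats1 and Lats2 sites at 2 and 3 wpi, and PTG has 12, from those 4 sites at 2, 3 and 6 wpi. The labels do not spell out PTG, and they do not give the age or number of animals, the source of Cre or whether sites share an animal. There is 1 library for each arm, site and time, so the tests below compare libraries and not conditions, and differences between animals cannot be told apart from those between times or arms. Libraries held 2290 to 27974 reads (median 12621), and the sgRNA libraries 446 to 18504 indel reads. Shares carry exact (Clopper-Pearson) 95% intervals; these cover counting error only, since PCR copies of 1 molecule cannot be told from separate molecules.

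Positions are given from the cut, the template position that every junction of a site spans. The bases between the 2 copies are called the spacer here, and the deletion length is the homology plus the spacer. No matched part of a read runs past the cut, so a homology that touches the cut is a lower limit of the homology in the sequence. For 39 of 101 deletions of 1 length and overlapping edges, reads recorded more than 1 homology length. Those deletions hold 89 of the 151 alleles and 3538 member reads, and the cause was not tested. Guide and template sequences were not used, so repeats are described by length and position and not by their bases.

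Among indel reads of the sgRNA libraries, 11874 of 324853 (3.66%) were members, but this pooled value rests on a few sites. Over the 44 libraries the share had a median of 1.15%, from 0% to 44.6%. At 2 wpi, in the KO or coinjection library of each site, it was over 1% at 13 of 21 sites, over 5% at 7 and over 10% at 2. Hnf4a-sg2, in the gene of a nuclear receptor that drives hepatocyte expression (chromosome 2, 163506811 to 163572907, mm10), stood highest with 44.6% of indel reads. Next came Lats1-sg2 with 10.6%, Polg-sg3 with 9.46% and Kif11-sg3 with 9.32%, whose intervals overlap. Hnf4a-sg1 with 7.16%, Polg-sg2 with 5.98%, Polg2-sg1 with 5.06% and Lats2-sg1 with 3.32% followed. The other 13 sites lay between 0.107% at Tfam-sg1 and 1.56% at Fah-sg2. Among them, Tfam-sg2-3 had 0.208%, but 14880 of its 15882 indel reads were deletions of 20 bp or more. Of its deletions of 2 to 19 bp, members made up 23.6%.

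**Figure D1:**
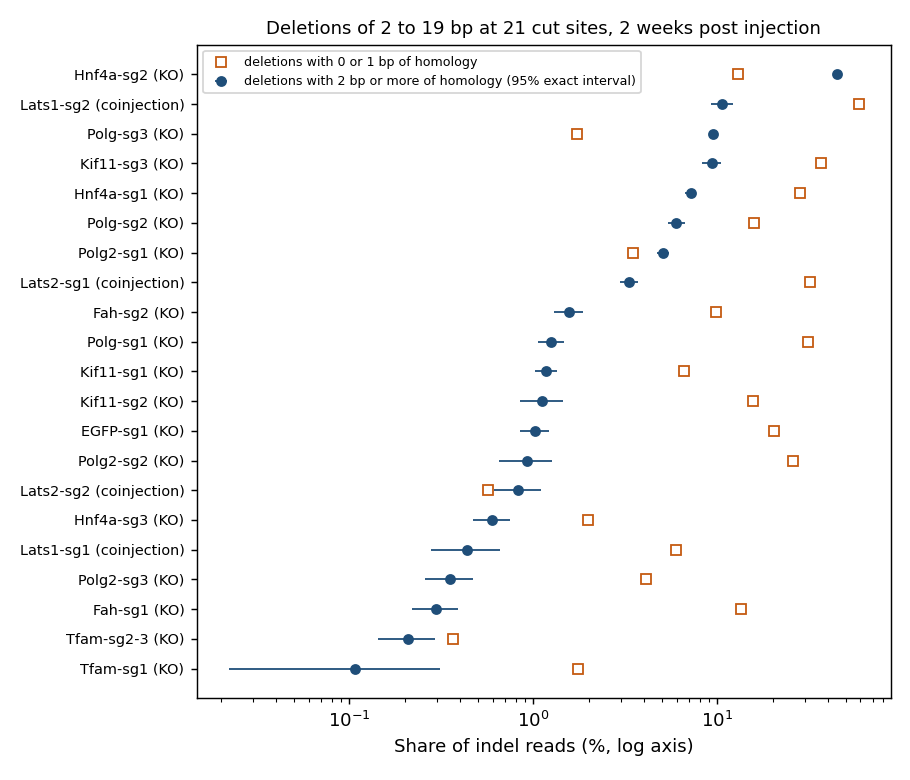
Share of indel reads (percent, log axis) at each of 21 cut sites at 2 weeks post injection. Filled points are deletions of 2 to 19 bp with at least 2 bp of homology, with exact 95% intervals, and open squares are deletions of that length with 0 or 1 bp. The filled point lies to the right of the square at 4 sites, with Hnf4a-sg2 farthest out at 44.6%.

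Deletions of the same length range with 0 or 1 bp of homology and no inserted bases were more frequent at most sites, with a median of 12.96% of indel reads. Members outnumbered them at 4 of 21 sites, namely Hnf4a-sg2, Polg-sg3, Polg2-sg1 and Lats2-sg2. Of all deletions of 2 to 19 bp, members made up a median of 10.6%. That share ran from 1.40% at Fah-sg1 to 65.6% at Polg-sg3 and 74.8% at Hnf4a-sg2.

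In the EV libraries 14 of 262414 reads were members, in 6 of 21 libraries. The highest EV share was 0.0437% of reads, and in the 15 EV libraries with no member read a count of 0 allows up to 3 reads, or 0.0117% to 0.102% of reads. All 7 EV alleles were also present in the sgRNA library of their site, and 12 of the 14 reads were the leading allele there. Against EV, the share of all reads was higher at 20 of 21 sites (two-sided exact test of Fisher, with p-values adjusted over 21 sites and 8 indel classes). Over all classes and sites 98.8% of such comparisons were called, so this count says nothing particular about members. The exception was Tfam-sg1, in the gene of the protein that packages mitochondrial DNA, with 3 of 10996 reads against 0 of 6997. Unedited EV reads ended later than unedited sgRNA reads at 21 of 21 sites, by a median of 2 bp, and the part of this in the comparison was not tested.

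Most member reads came from very small deletions recorded with 2 bp of homology, the shortest that the choice allows. In 83.0% of member reads a copy touched the cut, so for these the recorded homology is a lower limit. Of the 151 alleles, 66 had 2 bp of homology and held 9335 reads, 30 had 3 bp and 1033 reads, 21 had 4 bp and 937 reads, and 34 had 5 bp or more and 569 reads. The longest, 11 bp, was seen in 1 read. The 3 alleles of 2 bp with 2 bp of homology, at Hnf4a-sg2, Polg-sg3 and Polg2-sg1, made up 6632 reads, or 55.9% of all members. Without them 51.6% of the other 5242 reads had 2 bp, 19.7% had 3 bp, 17.9% had 4 bp and 10.9% had 5 bp or more. With the shortest recorded homology of each deletion, 68.8% of these reads had 2 bp and 3.20% had 5 bp or more. With the longest, the shares were 25.7% and 21.04%, so the spread of homology lengths depends on which record is used.

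By length, 12 alleles of 2 to 4 bp held 8460 reads and 27 alleles of 5 to 9 bp held 1713. Longer deletions were more varied and each was rarer: 47 alleles of 10 to 14 bp held 899 reads and 65 of 15 to 19 bp held 802. The median of the highest read count that an allele reached in 1 library was 197.5 at 2 to 4 bp, 23 at 5 to 9 bp, 9 at 10 to 14 bp and 7 at 15 to 19 bp. Over 100 reads in a library were reached by 13 alleles, while 72 stayed under 10 reads in every library. The median homology was 2 bp in both shorter bands and 3 bp in both longer ones.

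**Figure D2:**
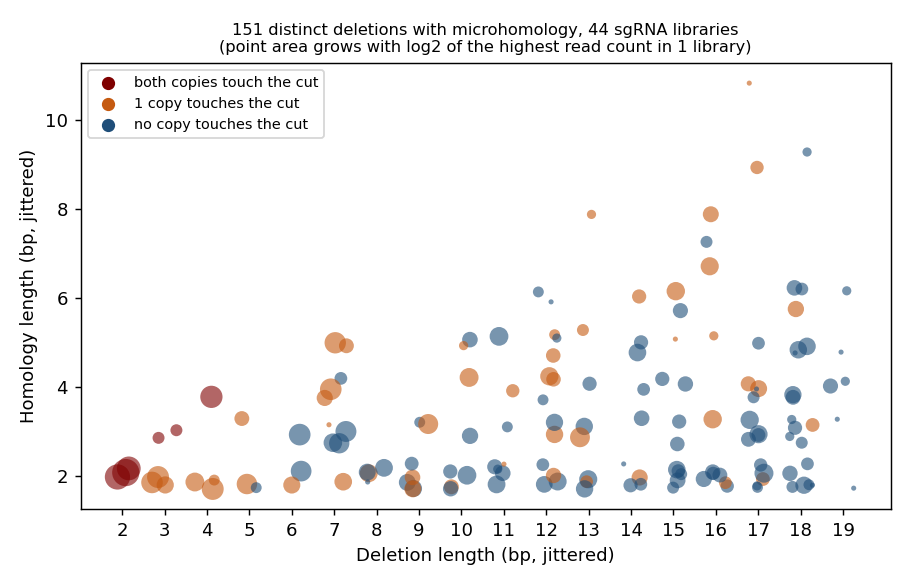
Deletion length (bp) against homology length (bp) for the 151 alleles of the 44 sgRNA libraries, both jittered, with point area growing with log2 of the highest read count in 1 library. Colour gives whether both, 1 or no copies of the homology touch the cut: the large points lie at 2 to 7 bp, and the 6 alleles with both copies at the cut are all at 4 bp or less.

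Deletion length is homology plus spacer, and the median homology was 2 or 3 bp in every length band. The order by spacer therefore largely repeats the order by length. The spacer was 0 in 6 alleles, which held 7094 reads (59.7%). There the bases on the left and right of the cut are the same repeat. Of these reads, 6632 were the 3 alleles of 2 bp, and the others had 448 (Kif11-sg3), 10 (Lats1-sg2) and 4 reads (Tfam-sg2-3). Without the 3 alleles of 2 bp, a spacer of 0 held fewer reads than any longer spacer range. Another 21 alleles with a spacer of 1 to 4 bp held 2686 reads (22.6%), 52 with 5 to 9 bp held 1080 (9.10%) and 72 with 10 to 17 bp held 1014 (8.54%). The median of the highest count in 1 library was 423 with no spacer, 49 at 1 to 4 bp, 10.5 at 5 to 9 bp and 7.5 at 10 to 17 bp. The 6 alleles with no spacer had highest counts of 4675, 1366, 591, 255, 4 and 4. A copy touched the cut in 56 alleles with 9854 reads (83.0% of reads, and 61.5% without the 3 alleles of 2 bp). The left copy alone touched it in 24 alleles with 1440 reads and the right copy alone in 26 alleles with 1320 reads, so neither side held most of these. The strand of each guide is not known here, so left and right do not say which side holds the PAM.

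Just inside the length limit, deletions of 19 bp with 2 bp or more of homology had 29 reads, and just outside, those of 20 bp had 64. Just outside the homology limit, deletions of 2 to 19 bp with 1 bp of homology had 9077 reads in 201 alleles, close to the 9335 reads with 2 bp. Those with 0 bp had 36694 reads. From 20 to 29 bp there were 102 further alleles with at least 2 bp of homology and 1049 reads.

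Of the member alleles 59.6% had a length that is not a multiple of 3, and such a deletion shifts a reading frame where the site is coding. They held 79.4% of reads, or 53.3% without the 3 alleles of 2 bp. By site, at 2 wpi, a median of 76.1% of member reads had such a length, against 93.9% of all other indel reads. The member value was the higher at 9 sites and the lower at 12. Those other reads include insertions and deletions of 1 bp, which always have such a length. For deletions in the members' length range with less than 2 bp of homology and no inserted bases, the median was 78.9%. Against these, the member value was the higher at 11 sites and the lower at 10. At Lats2-sg1 in coinjection at 2 wpi none of the 300 member reads shifted the frame, since all were 6 bp deletions. At Hnf4a-sg2, by contrast, 97.4% did.

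Compared with deletions of little homology at the same sites, members had a larger mean length (median over 21 sites 7.66 against 4.56 bp; larger at 15 sites and smaller at 6). They had fewer alleles at every one of the 21 sites (median 5 against 23), while reads per allele had medians of 25.8 and 25.7. An edge at the cut was present in a median of 72.8% of member reads and 90.5% of reads with little homology. These values are descriptions, since length and homology chose the members and a repeat must fit inside the deleted bases.

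**Figure D3:**
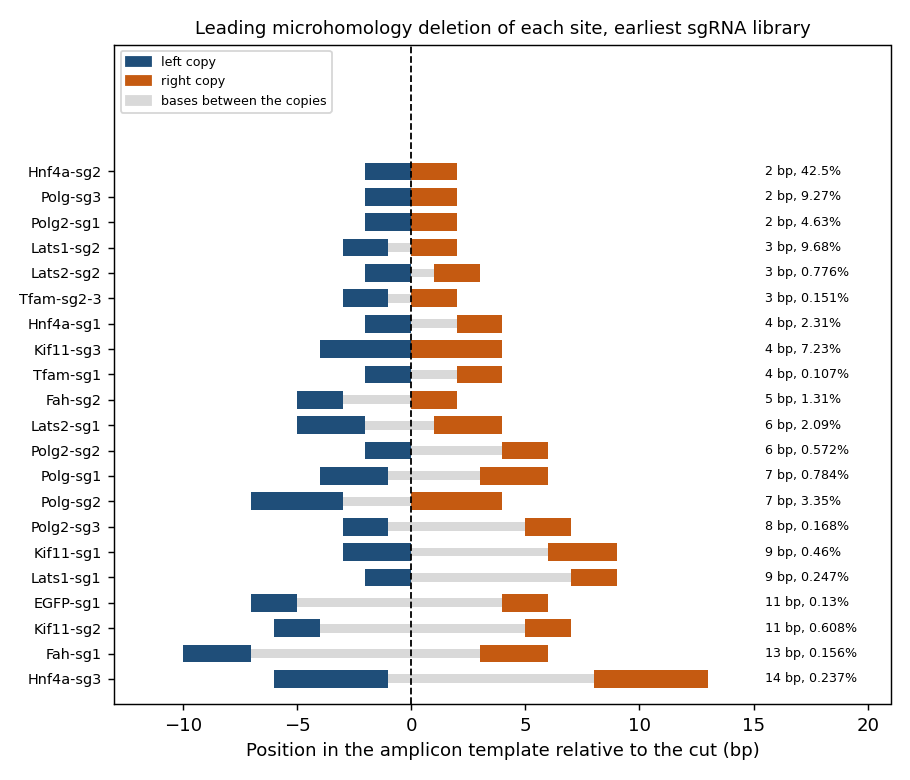
Leading member allele of each of 21 sites in its earliest sgRNA library (1 wpi for EGFP-sg1, 2 wpi elsewhere), drawn as position relative to the cut in bp. Blue and orange are the left and right copies of the homology, grey the bases between them, and the text gives deletion length and share of indel reads. In 14 of 21 sites a copy touches the cut, and the 4 sites with both copies there have shares of 4.63% to 42.5%.

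At most sites 1 allele dominated. The leading allele held a median of 62.6% of member reads over 21 sites, from 32.3% at Hnf4a-sg1 upward, and over 50% at 16 sites. Its homology was 2 bp at 14 sites, 3 bp at 4, 4 bp at 2 and 5 bp at 1, and its length was 9 bp or less at 17.

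An allele with no spacer led at 4 sites. At Hnf4a-sg2 the deletion of 2 bp with 2 bp of homology had 4675 of 11002 indel reads (42.5%, 41.6 to 43.4). The EV library there had 3 such reads among only 9 indel reads. As a share of all reads the values were 38.2% in KO and 0.0239% in EV (3 of 12538). The same kind of allele had 1366 of 14733 indel reads at Polg-sg3 (9.27%, 8.81 to 9.75) and 591 of 12772 at Polg2-sg1 (4.63%, 4.27 to 5.01). Polg (chromosome 7, 79446231 to 79467911) encodes the catalytic part of the polymerase that copies mitochondrial DNA, and Polg2 (chromosome 11, 106768204 to 106779537) its accessory part. At these 3 sites this allele held over 90% of member reads, namely 95.3%, 98.0% and 91.5%. The 4 bp deletion with 4 bp of homology led at Kif11-sg3, in the gene of a mitotic spindle kinesin (chromosome 19, 37376382 to 37421863). It had 193 of 2671 indel reads at 2 wpi (7.23%, 6.27 to 8.27) and 255 of 3086 at 8 wpi (8.26%, 7.32 to 9.29). A second record of 4 bp there, with 2 bp of homology and the same left start, had 49 and 21 reads.

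An allele with a spacer of 1 to 4 bp led at 10 sites. In Lats1-sg2 and Lats2-sg2 a 3 bp deletion with 2 bp of homology and a spacer of 1 bp led in each of 5 libraries. Lats1 and Lats2 encode the kinases of the Hippo pathway that restrain the growth regulators Yap and Taz (chromosome 10, 7681200 to 7716461, and chromosome 14, 57689662 to 57746212). At Tfam-sg2-3 (Tfam, chromosome 10, 71225468 to 71238328) an allele of the same build had 24 of 15882 indel reads (0.151%), and the shares of these 3 alleles ran from 0.151% to 9.68% in the earliest libraries. Most indel reads at Tfam-sg2-3 were deletions of 20 bp or more, so its share cannot be set directly beside the others. At Lats1-sg2 and Tfam-sg2-3 the same deletion was also recorded with 3 bp of homology and no spacer, in 10 and 4 reads, so the spacer there depends on the record. At Hnf4a-sg1 the lead was divided. There 218 reads had a 4 bp deletion with 2 bp of homology (2.31%), 162 a 7 bp deletion with 5 bp (1.72%) and 131 a 7 bp deletion with 3 bp (1.39%). The 7 bp alleles share their left start and right edge and count as 1 deletion when records are merged. With a further record of 10 reads, that deletion then had 303 reads (44.9% of member reads). It thus lay above the 4 bp deletion with 218, so the leader at Hnf4a-sg1 depends on the record. At Polg-sg2 a 7 bp deletion with 4 bp of homology had 183 reads (3.35%), and at Polg-sg1 one with 3 bp had 97 (0.784%). At Fah-sg2 (chromosome 7, 84585159 to 84605942), in the gene of the enzyme that ends tyrosine breakdown, a 5 bp deletion with 2 bp had 103 reads at 2 wpi (1.31%) and 29 at 3 wpi (0.318%). The exact intervals of these last 2 shares, 1.07 to 1.58 and 0.213 to 0.456, do not overlap. With records merged that deletion had 103 and 39 reads. Tfam-sg1 with 3 reads (0.107%) and Polg2-sg2 with 23 (0.572%) had the lowest read counts of this kind, with Tfam-sg2-3.

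At the other 7 sites the leading spacer was 6 to 10 bp, and each of these alleles stayed under 1% of indel reads in the earliest library. The highest was an 11 bp deletion with 2 bp of homology at Kif11-sg2 (31 reads, 0.608%) and the lowest an 11 bp deletion with 2 bp at EGFP-sg1 (7 reads at 1 wpi, 0.130%). Hnf4a-sg3 was led by the longest leading deletion, 14 bp with 5 bp of homology (29 reads, 0.237%). Kif11-sg1 had a 9 bp deletion with 3 bp (83 reads, 0.460%), Lats1-sg1 a 9 bp deletion with 2 bp (13 reads, 0.247%), Polg2-sg3 an 8 bp deletion with 2 bp (22 reads, 0.168%) and Fah-sg1 a 13 bp deletion with 3 bp (26 reads, 0.156%). These counts are small, and the PCR copies within them are not known.

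Recurrence could be followed at the 10 sites with several sgRNA libraries. They held 78 member alleles, of which 21 were found in every library of their site and held 2345 of 3582 reads. Another 40 alleles were found in 1 library only, with 546 reads (15.2%). Of all other indel alleles at these sites, 2030 of 2754 (73.7%) were in 1 library only, against 51.3% of members, and 16.5% were in every library, against 26.9%. By reads, alleles present in every library held 65.5% of member reads and 89.5% of other indel reads. Counted as recorded, the same allele led alone in every library at Fah-sg2, Kif11-sg3, Lats1-sg2 and Lats2-sg2, all with a spacer of 3 bp or less. At Kif11-sg1 the 9 bp deletion that led at 2 wpi, with a spacer of 6 bp, shared the lead at 8 wpi. It and a 10 bp deletion had 46 reads each there, so a lasting lead was not limited to short spacers. At EGFP-sg1, in the reporter of the Rosa cassette, a different allele led in each of 3 libraries, but the leaders at 1 and 2 wpi are records of 1 deletion of 11 bp. That deletion had 7 reads at 1 wpi, all with 2 bp of homology, and 58 at 2 wpi, 11 with 2 bp and 47 with 5 bp. At 3 wpi it had 12, all with 5 bp. A 17 bp deletion with 3 bp led at 3 wpi with 36 reads and had none at 1 or 2 wpi. With records merged, a 12 bp deletion led there with 38 reads, against 26 at 2 wpi and none at 1 wpi. At Kif11-sg2 the leading 11 bp deletion went from 31 reads at 2 wpi to 4 at 8 wpi, while a 10 bp deletion with 2 bp of homology went from 2 to 46. With records merged these counts were 34 and 4, and 4 and 59.

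The next question was whether the share of indel reads differed between times. The later library differed from the earlier at the threshold of 0.05 in 11 of 20 comparisons (two-sided Fisher's exact test, p-values adjusted over 20 comparisons and 8 indel classes), of which 6 were higher and 5 lower. The background over all classes was 53.8% called, with 27.5% higher and 26.2% lower, so members were called about as often as other classes. Without the leading allele of each site, 9 comparisons were called and 0 of them were lower. That allele was chosen for its reads in the earliest sgRNA library, which is the earlier library in many of these comparisons. Leaving it out tends by construction to take more from the earlier side, so no conclusion is drawn from the loss of lower calls. Of the 5 lower calls, Fah-sg2 and Lats1-sg2 in coinjection changed direction without it (0.0506 and 0.278 points). EGFP-sg1 from 2 to 3 wpi stayed lower by a smaller amount (-0.251 points; exact test, adjusted p = 0.0575), as did Lats2-sg1 in coinjection (-0.311 points, 0.0809). Lats2-sg2 in PTG had no member read left. This setting leaves out 1 record, so other records of the same deletion stay in. At Fah-sg2 these were 10 reads of the 5 bp deletion, all at 3 wpi, and the change of direction there depends on the record. At Lats2-sg1 in coinjection the reads left, 111 and 88, were all of the same 6 bp deletion. Averaged over the 10 sites, the last time exceeded the first by 0.466 ± 0.878 points (SD), with 7 sites up and 3 down (exact sign-flip test, two-sided, p = 0.123, smallest possible 0.00195). For Lats sites the changes of both arms were averaged first: coinjection at 3 and PTG at 6 wpi, each against 2 wpi. The arms went in opposite directions at every Lats site, for example -4.16 and 8.78 points at Lats1-sg2. A site counted as up therefore need not have risen in both arms, and the spans differ between sites.

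In the KO arm 5 of 8 comparisons were called. EGFP-sg1 had 7 of 5367 indel reads at 1 wpi (0.130%), 123 of 12034 at 2 wpi (1.02%) and 86 of 12630 at 3 wpi (0.681%). By Fisher's exact test the share rose by 0.892 points from 1 to 2 wpi (0.676 to 1.10, adjusted p = 5.5e-12), and the share at 3 wpi differed from that at 2 wpi by -0.341 points (adjusted p = 0.00875). The 1 wpi library held 136 distinct indel alleles, against 183 and 189 later; the part of this in the difference was not tested. Fah-sg1 had 49 of 16660 reads at 2 wpi (0.294%) and 93 of 18504 at 3 wpi (0.503%), a rise of 0.208 points (exact test, adjusted p = 0.00621). Fah-sg2, cut in the same gene, went the other way, from 123 of 7888 (1.56%) to 57 of 9135 (0.624%), a difference of -0.935 points (-1.27 to -0.625; exact test, adjusted p = 1.2e-08). Its leading 5 bp deletion accounts for 103 and 29 of those reads as recorded with 2 bp of homology, and for 103 and 39 with records merged.

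None of the 3 Kif11 sites was called between 2 and 8 wpi, the longest span measured. Kif11-sg1 had 1.17% and 1.03% (difference -0.146 points, -0.372 to 0.0846). Kif11-sg2 had 1.12% and 1.32% (0.203 points, -0.199 to 0.582). Kif11-sg3 had 9.32% and 9.66% (0.334 points, -1.19 to 1.85). The intervals give the size of change that these read counts allow, and the identity of the leading allele at Kif11-sg2 changed although its total share was not called.

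At the Lats sites both arms were followed. Lats1-sg2 had 195 of 1839 indel reads in coinjection at 2 wpi (10.6%) and 141 of 2189 at 3 wpi (6.44%), a difference of -4.16 points (exact test, adjusted p = 9.2e-06). In PTG it had 41 of 665 at 2 wpi (6.17%), 35 of 446 at 3 wpi (7.85%) and 263 of 1760 at 6 wpi (14.9%). The 6 wpi library was 8.78 points above that at 2 wpi (6.15 to 11.1; exact test, adjusted p = 4.5e-09). Its leading 3 bp deletion had 178, 114, 37, 31 and 164 reads in this order of libraries. At 6 wpi that allele made up 62.4% of member reads, against 90.2% and 88.6% in the earlier PTG libraries. A 17 bp deletion with 38 reads and a 12 bp deletion with 25, both with 3 bp of homology, were the next alleles there. They had 1 and 0 reads in PTG at 2 wpi.

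At Lats2-sg2 the share of indel reads rose in coinjection and fell in PTG from 2 to 3 wpi. In coinjection it had 48 of 5797 indel reads at 2 wpi (0.828%) and 246 of 5975 at 3 wpi (4.12%), a rise of 3.29 points (2.74 to 3.86; exact test, adjusted p = 1.6e-31). In PTG it had 48 of 1213 (3.96%), 40 of 2361 (1.69%) and 228 of 7072 (3.22%) at 2, 3 and 6 wpi. The step from 2 to 3 wpi was -2.26 points (exact test, adjusted p = 0.000261), and 6 against 2 wpi was not called (-0.733 points, -2.04 to 0.322). As a share of all reads the direction in PTG turned, with 0.233% at 2 wpi, 0.286% at 3 wpi and 1.14% at 6 wpi, and coinjection had 0.330% and 1.46%. The 3 bp deletion held most of the member reads, with 45 of 48 and 217 of 246 in coinjection and 177 of 228 in PTG at 6 wpi. It was the only member allele in the PTG libraries at 2 and 3 wpi.

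At Lats2-sg1 the members were records of a single 6 bp deletion in both coinjection libraries. At 2 wpi 189 reads carried 3 bp of homology and 111 carried 2 bp, together 300 of 9026 indel reads (3.32%). At 3 wpi 88 of 9310 reads carried 2 bp (0.945%) and none carried 3 bp. The difference was -2.38 points (-2.81 to -1.97; exact test, adjusted p = 4.2e-29). In PTG there were 0 member reads of 1203 at 2 wpi (exact 95% interval up to 0.306%), 6 of 2766 at 3 wpi (0.217%) and 253 of 6155 at 6 wpi (4.11%). From 2 to 6 wpi the share rose by 4.11 points (exact test, adjusted p = 1.1e-19). At 6 wpi the 6 bp deletion with 2 bp of homology had 116 reads, and the remaining members were 10 to 18 bp long, led by a 17 bp deletion with 52 reads. None of those longer alleles was seen in coinjection.

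Lats1-sg1 had few members throughout. There were 23 of 5253 indel reads (0.438%) and 8 of 2553 (0.313%) in coinjection, and 6 of 5415 (0.111%), 1 of 3434 (0.0291%) and 7 of 3245 (0.216%) in PTG. No time comparison was called. The leading allele differed between libraries, with 4 different leaders in 5 libraries.

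**Figure D4:**
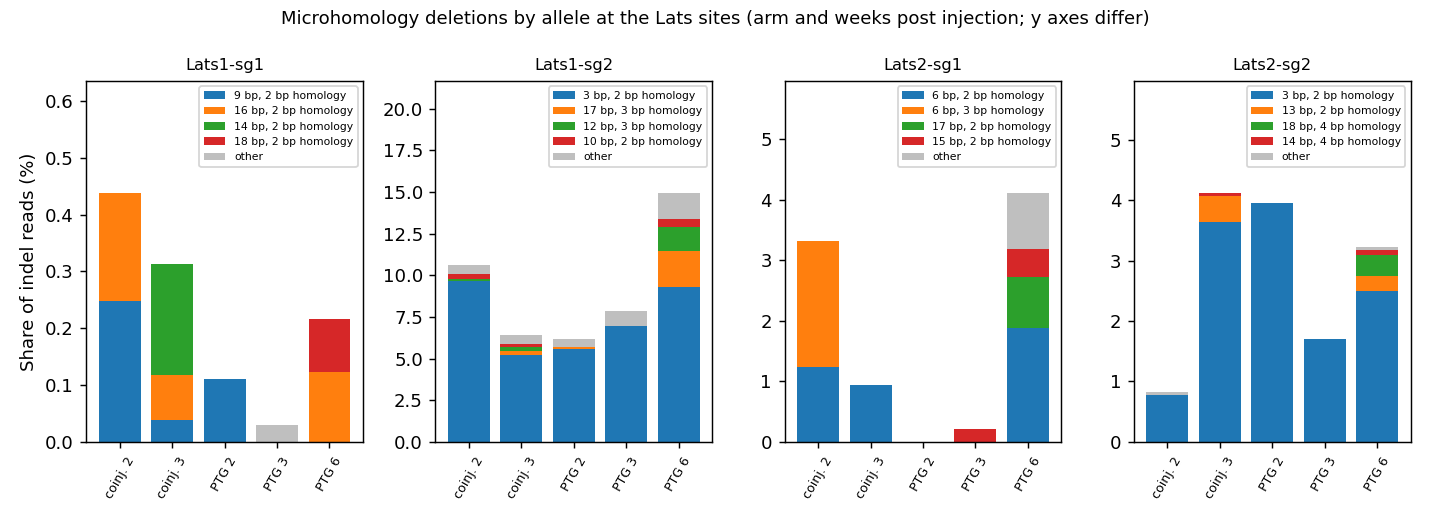
Share of indel reads (percent, linear axes that differ between sites) held by member alleles at the 4 Lats sites, in coinjection at 2 and 3 wpi and PTG at 2, 3 and 6 wpi. Each bar is 1 library, stacked by the 4 alleles with most reads at the site and all others. The same 3 bp deletion (blue) fills most of each bar at Lats1-sg2 and Lats2-sg2. Longer deletions were present beside it in PTG at 6 wpi and also in coinjection at both sites.

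Set against coinjection at the same site and time, PTG differed in 7 of 8 comparisons (two-sided Fisher's exact test, p-values adjusted over 8 comparisons and 8 classes), with 1 higher and 6 lower. Over all classes 60.9% were called, 21.9% higher and 39.1% lower in PTG. With homology of 3 bp or more, 1 of the 8 was called. At 2 wpi the PTG share was below that of coinjection, with a difference of -0.327 points at Lats1-sg1 (0.111% against 0.438%), -4.44 points at Lats1-sg2 (6.17% against 10.6%) and -3.32 points at Lats2-sg1 (0% against 3.32%). At Lats2-sg2 it was higher by 3.13 points (3.96% against 0.828%; exact test, adjusted p = 1.2e-12). At 3 wpi the differences were -0.284 points at Lats1-sg1, -0.728 at Lats2-sg1 and -2.42 at Lats2-sg2, so the order at Lats2-sg2 turned between both times. As a share of all reads PTG lay below coinjection there at both times (-0.0964 and -1.17 points). At 2 wpi that difference was not called (exact test, adjusted p = 0.109). With homology of 3 bp or more (-0.0518) and without the leading allele (-0.0522) PTG also lay below at 2 wpi. Neither was called, and both settings compare 0 PTG reads with 3 coinjection reads. Lats1-sg2 at 3 wpi was not called (1.41 points, -1.01 to 4.43).

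Averaged over both times and then over the 4 sites, PTG minus coinjection was -0.874 ± 1.09 points (SD, 1 site above and 3 below 0; exact sign-flip test, two-sided, p = 0.375). With 4 sites this test cannot go below 0.125. The PTG libraries at 2 wpi held fewer distinct indel alleles at 3 of the sites, namely 45 against 81 at Lats1-sg2, 20 against 72 at Lats2-sg1 and 25 against 60 at Lats2-sg2. At Lats1-sg1 the numbers were 132 and 91. They also held fewer indel reads at those 3 sites, for example 1203 against 9026 at Lats2-sg1, and the part of either in the differences was not tested.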

How the data were processed

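Genomic DNA of hepatocytes was amplified around each cut site, and the amplicons of each sample were combined at equal amounts before sequencing, per the labels' protocols. Bowtie2, bcl2fastq, deepTools, R 4.2.1 and the build mm10 appear in the submitters' processing notes without a role. Which tool placed the junctions is not stated in these sources. The deposited tables hold 1 line per read with the junction's edges on the template and in the read, a net indel length and a homology length, in bp and not normalised, per the file headers. Members and comparisons were chosen with earlier results of these data known. The labels set each library's arm, site and time, and a second pair of tables for Tfam-sg2-3 was left out. The cut was the modal junction position of unedited reads.

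Indel reads were counted in 8 classes (members, little homology or inserted bases at 2 to 19 bp, deletions of 1 bp and of at least 20 bp, and 3 insertion classes). Pairs of libraries were tested by Fisher's exact test, two-sided, and p-values were adjusted by Benjamini-Hochberg. Differences carry Newcombe 95% intervals, and the PTG and coinjection changes were compared by a Wald test of log odds with 0.5 added to each cell and, added after seeing the data, by Zelen's exact test. Sites were averaged with exact sign-flip tests; sites may share an animal. A share of 0 allows up to 3 reads of the total. Alleles named are, per site, the 3 member alleles with most reads in the earliest sgRNA library, each with at least 1% of indel reads, and always the leading one; alleles named from later libraries were chosen after their values were seen. Fisher's exact test was checked on simulated independent reads, adjusted within each pair of libraries, without PCR copies or differences between animals. The sign-flip and Zelen's tests were checked on fixed numbers only, and the Wald test was not checked. Gene positions are from RefSeq, GRCm38.p6. Alternatives are given at the end. The software was scipy 1.17.1, pandas 2.3.3, numpy 2.4.6 and matplotlib 3.10.9 under Python 3.11.15.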

Additional observations from a re-analysis of the deposited data

Results flagged for a closer look

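At Lats1-sg2 and Lats2-sg2 the change from 2 to 3 wpi in the share of indel reads differed between the arms. At Lats1-sg2 the change was 1.68 points in PTG and -4.16 points in coinjection, so PTG minus coinjection was 5.84 points (Wald test of log odds, adjusted p = 0.00461 over 4 sites; Zelen's exact test of equal odds ratios, 0.00526). At Lats2-sg2 it was -2.26 points in PTG and 3.29 points in coinjection, a difference of -5.55 points (adjusted p = 4.0e-20 by the Wald test and 5.0e-20 by the exact test). The 2 sites differ in opposite directions. At Lats2-sg1 the difference was 2.60 points, which the Wald test did not call (adjusted p = 0.0545) and the exact test did (0.00526); PTG there had 0 and 6 member reads. At Lats1-sg1 it was 0.0428 points (adjusted p = 0.471, and 0.643 by the exact test). Each change rests on 1 library per arm and time, so differences between animals and between arms cannot be told apart.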

How the results depend on the processing

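Values here are called comparisons for counts and percentage points for differences; alternatives were fixed with earlier results known. With homology of 3 bp or more, 5 time comparisons were called (1 lower) and 1 of PTG against coinjection (0 higher, 1 lower), and the difference between arms in the change from 2 to 3 wpi was called at 0 sites. Without each site's leading allele no time comparison was called lower (0), no PTG library higher (0) and no such difference in change (0). That allele was chosen in the earliest sgRNA library, so the time counts carry the limit given above. With each allele counted once, the counts against EV, over time (0 higher, 0 lower), between arms (0 higher, 0 lower) and in change were all 0. This setting compares numbers of distinct alleles, with at most 15 members in an sgRNA library and 2 in an EV library. Such small numbers allow few calls, so no conclusion is drawn from these counts or from the differences against EV under it. As a share of all reads, 0 PTG libraries were higher. The median share over sgRNA libraries moved from 1.15% to 4.45% with homology of 1 bp or more, 0.262% with 3 bp or more, 1.60% with deletions up to 29 bp, 0.462% without the leading alleles, 3.32% with each allele once, 0.769% of all reads and 3.41% without 1 bp indels. The mean change over time, 0.466 points, passed the threshold with deletions up to 29 bp (0.838, exact sign-flip test, p = 0.0273), with each allele once (0.905, p = 0.0234) and without Fah-sg2 (0.621, p = 0.0156). Leaving out 1 site at a time gave 0.261 to 0.621, and for PTG minus coinjection -1.28 to -0.490. With Zelen's exact test, added after seeing the data, the arms' changes from 2 to 3 wpi differed at 3 sites and not 2. Merging records of 1 deletion, also added then, moved no count of calls by over 1.5 times.

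The following single differences changed direction. With homology of 1 bp or more these were Kif11-sg3 (-2.60), Lats1-sg1 in coinjection (0.359), Lats1-sg1 and Lats2-sg2 in PTG at 6 against 2 wpi (-0.104 and 0.156) and the arms' difference in change at Lats1-sg1 (-0.579). With 3 bp or more they were Fah-sg2 (0.0530), Lats1-sg2 in coinjection (0.222) and PTG at 3 wpi (-0.377), Lats2-sg2 in coinjection (-0.00154) and PTG at 6 wpi (0.481), PTG against coinjection at Lats1-sg2 at 2 and 3 wpi (0.275 and -0.324) and at Lats2-sg2 at 2 wpi (-0.0518), and the difference in change at Lats1-sg2 (-0.599) and Lats2-sg2 (0.00154). With deletions up to 29 bp they were Kif11-sg1 (0.0680), Lats1-sg1 and Lats2-sg2 in PTG at 6 wpi (-0.0487 and 0.568) and the difference in change at Lats1-sg1 (-0.119). Without the leading allele they were Kif11-sg3 (-0.741), Fah-sg2 (0.0506), Lats1-sg1 in coinjection (0.0835) and PTG at 3 wpi (0.0291), Lats1-sg2 in coinjection (0.278), Lats2-sg2 in PTG at 6 wpi (0.740), PTG against coinjection at Lats1-sg2 at 3 wpi (-0.337) and Lats2-sg2 at 2 wpi (-0.0522), and the difference in change at Lats1-sg1 (-0.0543). As a share of all reads they were Lats2-sg2 in PTG at 3 and 6 wpi (0.0528 and 0.910) and PTG against coinjection at Lats1-sg2 at 3 wpi (-1.24) and Lats2-sg2 at 2 wpi (-0.0964). Lats2-sg2 in PTG at 6 wpi was 9.62 without 1 bp indels, and Kif11-sg3 was -0.510 without alleles under 10 reads. With each allele once they were Kif11-sg1 (0.737), Kif11-sg2 (-0.717), Fah-sg2 (0.131), Lats1-sg1 and Lats1-sg2 in PTG at 3 wpi (0.186 and -1.11), Lats2-sg2 in PTG at 6 wpi (3.46), PTG against coinjection at 3 wpi at Lats1-sg2 (-0.609) and Lats2-sg1 (1.78), and against EV at Fah-sg1 (-3.62), Hnf4a-sg2 (-4.61), Kif11-sg2 (-1.81), Kif11-sg3 (-3.30), Polg-sg3 (-7.06) and Polg2-sg1 (-2.43). In all, 48 of 566 single comparisons under an alternative changed direction, 52 lost their call, 10 gained one and 456 kept both. In 19 further cases no member read was left and no value is given. The causes were not tested.

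No paired analysis by replicate was possible because each arm, site and time is 1 library; the sign-flip tests pair values by site. The 8 sgRNA libraries with under 10 member reads give wide intervals, and PCR copies cannot be told from separate molecules.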

Other observations

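The second pair of tables for Tfam-sg2-3, on a shorter template, enters no comparison. In it, 12 of 14876 KO reads were deletions of 2 to 19 bp with at least 2 bp of homology (0.0807%, exact 95% interval 0.0417 to 0.141) and 0 of 170 EV reads (up to 2.15%).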
